A study of Mus musculus with 30 samples.

Results

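Notch signalling passes between neighbouring cells: a ligand of the Delta-like or Jagged family on one cell binds a Notch receptor on the next, the receptor is cleaved by an ADAM protease and then by gamma-secretase, and the freed intracellular domain enters the nucleus, where it joins the DNA-binding protein RBPJ and switches on genes such as those of the HES and HEY repressors. In blood vessels this pathway is known for keeping arteries distinct from veins and for deciding which endothelial cells (ECs) lead a sprout, with DLL4 and JAG1 acting as opposed ligands. The genes followed here were chosen by name and number 10 of 21820 protein-coding gene symbols: the receptors Notch1 and Notch4, the ligands Dll1, Dll4, Jag1 and Jag2, the target genes Hes1, Hey1 and Hey2, and Rbpj. They are given by name alone, in a list drawn up with earlier results of these data known.

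RNA-seq of 14 libraries from adult male mouse brain covered ECs sorted straight from the animal and ECs kept for 8 days in primary culture, and 10 ATAC-seq libraries gave the open chromatin. The sorted cells came from Tie2-GFP mice, in which the Tie2 promoter drives GFP in ECs: 2 RNA-seq libraries of GFP-positive cells (acute ECs) and 2 of GFP-negative cells, each of which combines data of cerebrum and cerebellum. Cultured ECs were selected with puromycin, and each culture experiment pooled several mice and gave 2 wells, which are the replicates, so that p-values measure the spread between wells of few experiments. The 6 WT cultures were 2 wells from C57BL/6J mice isolated by papain digestion (method A, experiment 1) and 4 wells from Ctnnb1flex3/+;Tie2-GFP mice isolated by Dounce homogenisation (method B), of which 2 were sequenced for 150 cycles at another facility (experiment 2) and 2 for 36 cycles (experiment 3). This assignment follows the study's Methods. A figure legend of the study instead gives method B only to the 2 wells sequenced at the other facility. By that legend experiment 3 would be of method A. The 4 stabilized cultures came from Ctnnb1flex3/+;Pdgfb-CreER;Tie2-GFP mice, 2 wells by method A and 2 by method B, all at 36 cycles. Pdgfb-CreER is a tamoxifen-inducible Cre of ECs that removes exon 3 of Ctnnb1, which leaves a beta-catenin that resists degradation, and mice with the Ctnnb1flex3 allele, the WT ones included, had received 4-hydroxytamoxifen as pups. With method A the stabilized and WT cultures therefore also differ in strain and transgene. The study's Results can be read as giving 4-hydroxytamoxifen to the C57BL/6J mice too, while its Methods leave this open. With method B the genotypes differ in the Cre alone. Their wells are counted here as separate culture experiments, and the WT wells of experiment 2 also differ in read length and facility. The ATAC-seq libraries were 2 of acute ECs, 6 of WT cultures (2 by method A, 4 by method B) and 2 of stabilized cultures (method B).

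Total counts ranged from 24284843 to 94686456 per RNA-seq library. The summed TPM (a transcript level per length and per library) of 9 EC markers was 2999 to 3044 in acute ECs, 1722 to 4321 in WT cultures, 1915 to 5820 in stabilized cultures and 9.13 to 20.8 in GFP-negative cells, in which Notch3, Jag1 and Hey2 sat beside high markers of pericytes and smooth muscle (8 genes, 3740 to 5569 TPM) and of astrocytes (7 genes, 1691 to 4367 TPM). Those 8 mural markers summed to 479 to 570 TPM in acute ECs and to 503 to 3034 TPM in WT cultures. In WT cultures Acta2 and Tagln were called higher and Pdgfrb, Rgs5, Kcnj8, Abcc9 and Myh11 lower than in acute ECs. Against GFP-negative cells, acute ECs were called lower for 4 of the 8 (Cspg4, Acta2, Tagln and Myh11). Mean CPM (defined below) was 2347 in acute ECs and 1824 in GFP-negative cells for Rgs5. In the same order it was 217.6 and 156.1 for Abcc9, 41.5 and 18.3 for Kcnj8, and 190.7 and 310.4 for Pdgfrb. Rgs5, Abcc9 and Kcnj8 thus did not share the lower sum of acute ECs. The sum of the 9 EC markers hides changes of single genes. Emcn was called higher and Cldn5, Kdr, Tek and Flt1 lower in WT cultures than in acute ECs. Their median log2 fold change was -1.86, in a comparison that called 13.5% of all tested genes higher and 10.2% lower. Astrocyte markers came to 96.5 to 469 TPM in acute ECs and 3.55 to 45.9 TPM in WT cultures, and erythrocyte markers to 5448 to 41100 TPM in acute ECs and at most 1.39 TPM in WT cultures. The share of counts on mitochondrial genes was 10.6 to 11.2% in acute ECs and 0.667 to 1.58% in WT cultures. The part of other cells and of RNA quality in the results below was not tested. Ctnnb1 itself checked no label, since a gene total does not resolve exon 3 (230 to 747 TPM in WT and 306 to 808 TPM in stabilized cultures).

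Values are given as normalised counts-per-million values (CPM): estimated read counts summed over the transcripts of a gene, scaled per library by the TMM factors of edgeR over all 14 libraries. A gene was called higher or lower where edgeR's quasi-likelihood test gave an adjusted p under 0.05 over all genes tested, the change exceeded 2-fold and each replicate of the higher group reached 5 TPM or more. Against GFP-negative cells, acute ECs were called higher for 5 of the 10 genes (Notch1, Notch4, Dll4, Jag2 and Hey1), where 8.3% of 15101 tested genes were called higher, and lower for 1 (Hey2), where 7.56% were. WT cultures were called lower than acute ECs for 2 of the 10 (Notch1 and Jag2; 10.2% of 13785 tested genes) and higher for 0 (13.5%). Stabilized cultures were called lower than the same acute libraries for 2 of the 10 (Notch1 and Hey1; 11% of 13889 tested genes) and higher for 0 (15.1%). Between stabilized and WT cultures none of the 10 was called, nor was any of 12959 tested genes (0%), while 1344 of these genes had an unadjusted p under 0.05 and DESeq2 called 13 higher and 3 lower. Over the 10 genes the median log2 fold change was 1.58 between acute ECs and GFP-negative cells (-0.06 over all genes tested), -0.26 between WT cultures and acute ECs (0.10 over all genes) and 0.26 between stabilized and WT cultures (-0.04 over all genes). In bulk samples, fewer cells of a type and less RNA per cell cannot be told apart, and read type, which differs between sorted and cultured samples, cannot be told apart from culture. For library preparation the study states another facility only for the wells of WT experiment 2.

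**Figure D1:**
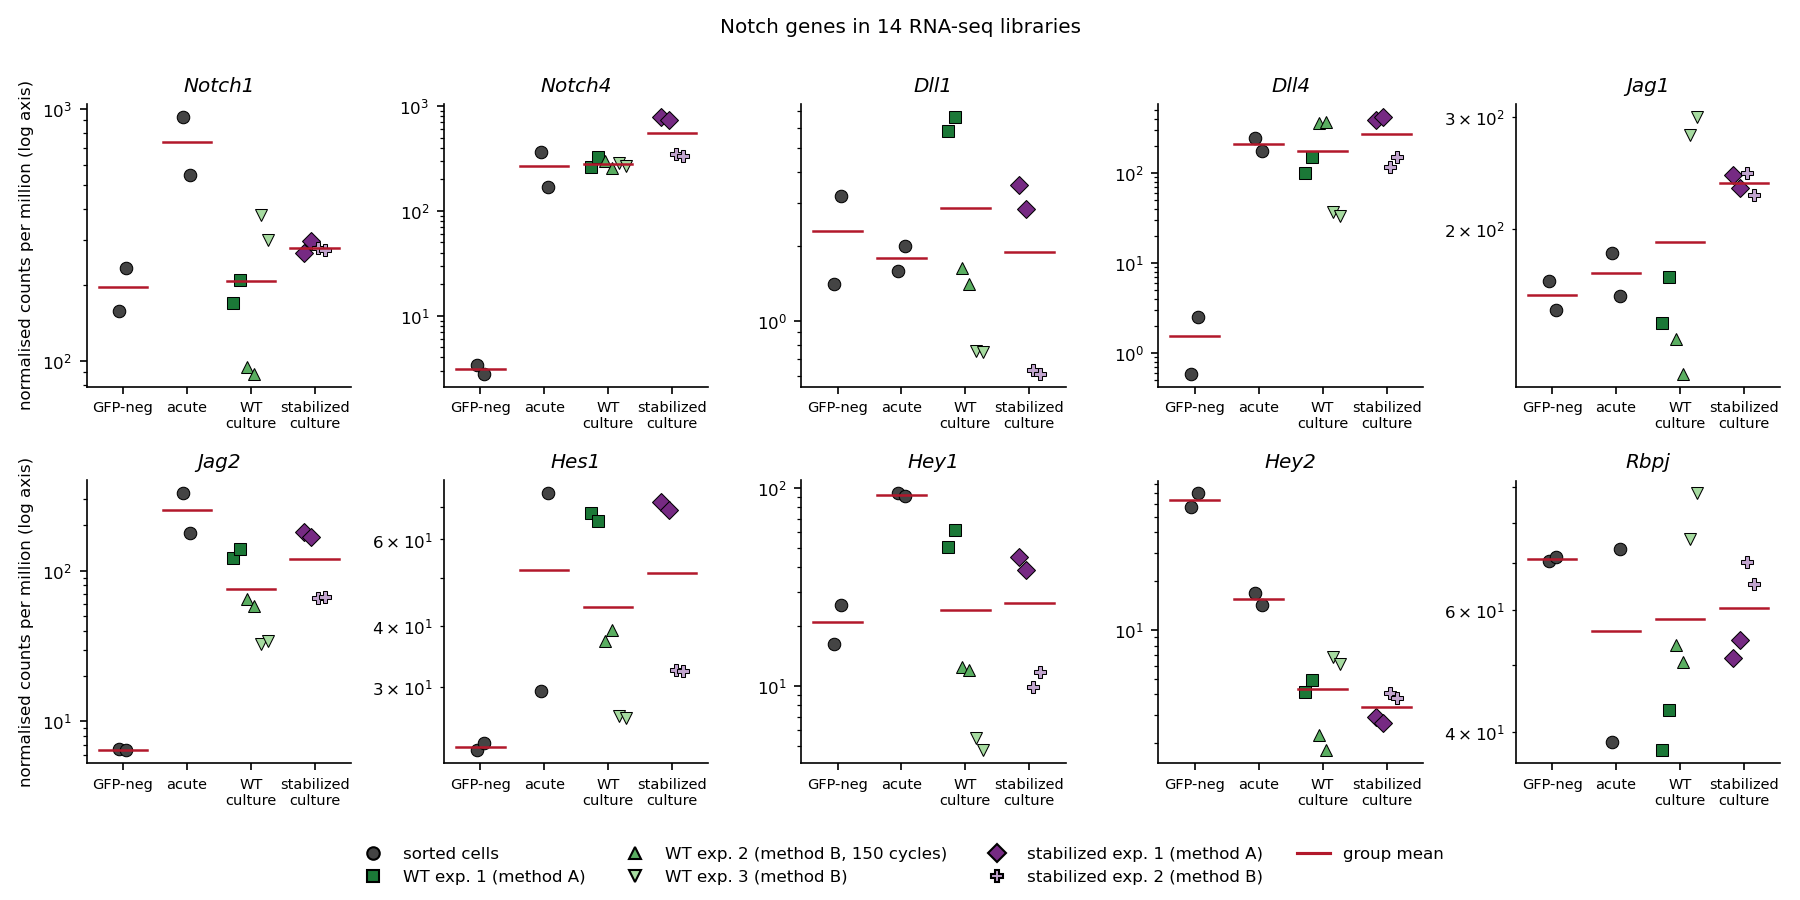
Normalised CPM (log axis) of the 10 Notch genes in each of 14 RNA-seq libraries, by group, with WT and stabilized cultures split by experiment; red lines are group means. The 2 acute libraries sit above all 6 WT cultures for Notch1, Jag2, Hey1 and Hey2, and the wells of a culture experiment lie close together while experiments lie apart.

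Notch1, the receptor that ECs are best known to use in sprouting and arterial fate, was at 546.8 and 928.5 CPM in the 2 acute libraries and at 157.7 and 233 CPM in the 2 GFP-negative ones. It ranged from 88.7 to 379 CPM in the 6 WT cultures, with a median of 189, and was at 268, 274, 280 and 298.5 CPM in the 4 stabilized cultures. Both acute libraries therefore lay above all other 12, and the stabilized cultures lay inside the range of the WT cultures. In edgeR's quasi-likelihood test Notch1 was higher in acute ECs than in GFP-negative cells 3.83-fold (log2 fold change 1.94 ± 0.41 (SE), adjusted p = 0.0180). It was 3.59-fold lower in WT cultures than in acute ECs (log2 fold change -1.84 ± 0.54 (SE), adjusted p = 0.0214) and 2.67-fold lower in stabilized cultures (-1.42 ± 0.23, adjusted p = 0.00283). Without acute replicate 1, the library with the highest Notch1 value, the call against WT cultures was lost (-1.43, adjusted p = 0.147), the fold against stabilized cultures came under 2 (-0.98), and the call against GFP-negative cells was lost (1.38, adjusted p = 0.0511), as it also was without GFP-negative replicate 1 (1.69, adjusted p = 0.0700).

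Notch4, a receptor made mainly by ECs, was at 2.80 and 3.37 CPM in GFP-negative cells and at 169 and 361.5 CPM in acute ECs. The 6 WT cultures held 255 to 327 CPM with a median of 278, and the 4 stabilized cultures 335, 346, 738.5 and 787.5 CPM. Acute and WT values overlapped, and the stabilized cultures lay above all WT ones, those of method A far above those of method B. Notch4 was 87.2-fold higher in acute ECs than in GFP-negative cells (log2 fold change 6.45 ± 0.56, adjusted p = 0.00177 by edgeR), a value that fell to 5.67 without acute replicate 1 with the call kept. Its log2 fold change was 0.08 ± 0.33 in WT cultures against acute ECs (adjusted p = 0.856) and 0.95 ± 0.27 in stabilized against WT cultures (unadjusted p = 0.00471, adjusted p = 0.380 by edgeR).

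The measure of expression mattered for several of the genes, and Notch1 is shown in full. Of its 11 annotated transcripts, Notch1-201 is the full-length coding one (9488 bases) and Notch1-203 a processed transcript of 284 bases, at chr2:26465471-26466654 on the minus strand (GRCm38), made of 1 exon of 188 bases and 1 of 96 bases. It is shown because TPM divides by length, so that the few reads assigned to so short a transcript weigh heavily. Of its bases, 245 lie in coding exons of Notch1-201 and the other 39, in capitals, do not (sequence from GENCODE M21).
Notch1-203: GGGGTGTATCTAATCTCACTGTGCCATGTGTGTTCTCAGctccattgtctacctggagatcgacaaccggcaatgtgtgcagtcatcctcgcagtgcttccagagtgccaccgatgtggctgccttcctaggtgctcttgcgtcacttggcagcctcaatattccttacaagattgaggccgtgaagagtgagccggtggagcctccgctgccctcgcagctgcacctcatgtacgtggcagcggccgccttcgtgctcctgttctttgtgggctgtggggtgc
In the 2 acute libraries Notch1-203 took 2.88 and 8.84% of the estimated Notch1 counts but 77.5 and 95.4% of the Notch1 TPM, and in the WT cultures it was listed at 0 in all 6. Summed over all transcripts, Notch1 was at 205 and 572 TPM in acute ECs, whereas its coding transcripts were at 25.4 and 25.8 TPM. The coding transcripts were at 10.8 to 25.1 TPM in WT cultures, 16.5 to 39.6 TPM in stabilized cultures and 4.90 and 11.9 TPM in GFP-negative cells, so that on this scale acute ECs lay only just above the highest WT culture and inside the range of the stabilized ones. With an offset for effective transcript length the log2 fold change of Notch1 in WT cultures against acute ECs was -5.04 over all transcripts and -1.48 over coding transcripts (edgeR adjusted p = 0.000308 and 0.0373), against -1.96 for coding counts without the offset (adjusted p = 0.0150). The call thus held on each of these scales, while its size did not. Reads were single and of 75 cycles in the sorted libraries and paired and of 36 or 150 cycles in the cultures, and the part of read type in the assignment to short transcripts was not tested.

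**Figure D2:**
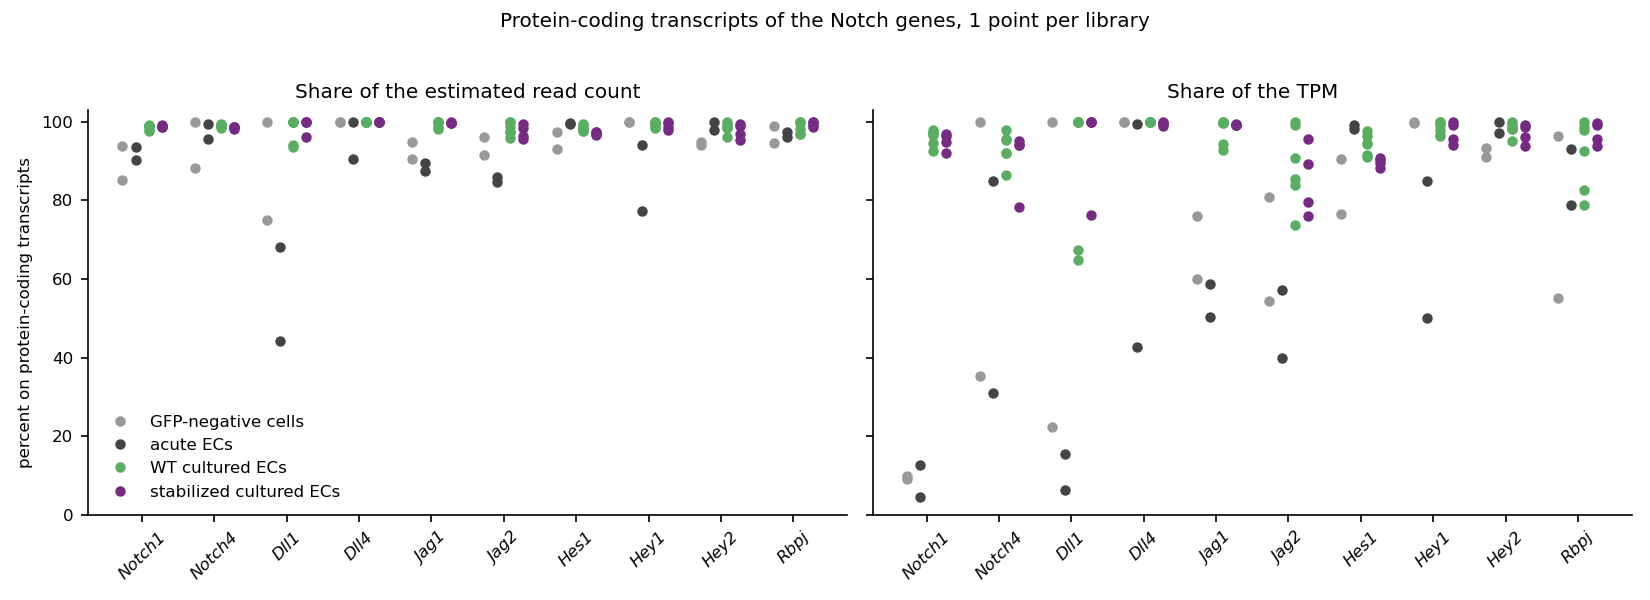
Percent of the estimated read count (left) and of the TPM (right) of each Notch gene that fell on protein-coding transcripts; each point is 1 library, coloured by group. In acute ECs coding transcripts of Notch1 held 90.3 and 93.6% of the counts but 4.43 and 12.6% of the TPM, whereas in WT cultures they held at least 92.5% of either.

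Dll4, the ligand of sprouting tips and arteries, was at 0.595 and 2.53 CPM in GFP-negative cells and at 175.5 and 245 CPM in acute ECs, an edgeR log2 fold change of 7.10 ± 0.84 (SE, adjusted p = 0.00333). The call held without either GFP-negative library, but its size moved to 6.40 without replicate 1 and to 8.49 without replicate 2. In culture it spread widely, from 33.6 to 368.5 CPM in the 6 WT wells with a median of 125, and at 118.5, 152, 390 and 422.5 CPM in the 4 stabilized wells. WT wells lay both above and below the acute libraries, and the log2 fold change against acute ECs was -0.28 ± 0.88 (edgeR adjusted p = 0.816). The difference between stabilized and WT cultures came to 0.60 ± 0.71 (edgeR adjusted p = 0.769) over all 10 cultures.

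Jag2, a Jagged ligand that arterial ECs also carry, was at 6.44 and 6.53 CPM in GFP-negative cells and at 178 and 327 CPM in acute ECs, a 39.5-fold difference (log2 fold change 5.30 ± 0.47, edgeR adjusted p = 0.00182; 4.67 without acute replicate 1, with the call kept). It ranged from 32.7 to 140 CPM in WT cultures with a median of 61.6, and was at 66.4, 66.6, 166.5 and 182 CPM in stabilized cultures. All WT wells lay below both acute libraries, and 1 stabilized well lay above the lower of them. Jag2 was 3.37-fold lower in WT cultures than in acute ECs (-1.75 ± 0.56, edgeR adjusted p = 0.0305), and for stabilized cultures the value was -1.09 ± 0.50 (adjusted p = 0.105). The call for WT cultures stood near its threshold and was lost without acute replicate 1 (-1.25, adjusted p = 0.231), acute replicate 2 (-2.14, adjusted p = 0.0511), or WT replicate 3 or 4 (-1.71 and -1.69, adjusted p = 0.0505 and 0.0506).

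Jag1, the Jagged ligand known to oppose DLL4 in sprouting, was at 149 and 165.5 CPM in GFP-negative cells and at 157 and 183 CPM in acute ECs, with overlapping values (log2 fold change 0.13 ± 0.31, edgeR adjusted p = 0.780). It ranged from 118 to 301 CPM in WT cultures with a median of 155, and was at 226.5, 232, 244 and 245 CPM in stabilized cultures. The stabilized wells lay above both acute libraries, by 0.46 ± 0.16 on the log2 scale (edgeR adjusted p = 0.0457), a change of 1.38-fold that is under the minimum for a call. Dll1, a Delta-like ligand known mainly from the nervous system, was low everywhere: 1.41 and 3.19 CPM in GFP-negative cells, 1.59 and 2.003 CPM in acute ECs, 0.750 to 6.65 CPM in WT cultures (median 1.52) and 0.612, 0.634, 2.81 and 3.53 CPM in stabilized cultures. Its groups overlapped throughout, and no comparison of them passed the test (edgeR adjusted p from 0.603 to 0.953).

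Hey1, a HEY repressor that Notch switches on in ECs, was at 16.3 and 25.8 CPM in GFP-negative cells and at 91.4 and 94.0 CPM in acute ECs, 4.46-fold more (log2 fold change 2.16 ± 0.42, edgeR adjusted p = 0.0138). It ranged from 4.75 to 61.1 CPM in WT cultures with a median of 12.3, and was at 9.87, 11.8, 38.4 and 45.04 CPM in stabilized cultures. Every culture was below both acute libraries. With WT wells this far apart the log2 fold change of -1.94 ± 0.88 against acute ECs did not pass (edgeR adjusted p = 0.101), and the stabilized cultures, at -1.84 ± 0.62, did so narrowly (adjusted p = 0.0406). Without WT replicate 2 the WT value passed (-2.46, adjusted p = 0.0401); without acute replicate 1 or 2, or stabilized replicate 3 or 4, the stabilized call was lost (adjusted p = 0.124, 0.114, 0.0524 and 0.0676), as was the call against GFP-negative cells without GFP-negative replicate 1 (1.87, adjusted p = 0.0906).

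Hey2, the HEY repressor known for arterial fate and also active in heart and smooth muscle, was the member that GFP-negative cells carried at the higher level, with 57.3 and 69.6 CPM against 14.3 and 16.8 CPM in acute ECs. The log2 fold change was -2.01 ± 0.43 (edgeR adjusted p = 0.0182), and the call was lost without GFP-negative replicate 1 (adjusted p = 0.0679) or 2 (adjusted p = 0.130). In culture it was lower still, at 1.81 to 6.79 CPM in WT wells (median 4.50) and at 2.67, 2.88, 3.79 and 4.06 CPM in stabilized wells, all under both acute libraries. The adjusted p passed for WT (-1.85 ± 0.49, adjusted p = 0.0149 by edgeR) and for stabilized cultures (-2.23 ± 0.27, adjusted p = 0.000921), but Hey2 was not called because TPM stayed under 5 in the acute libraries. Hes1, a HES repressor that many signals besides Notch control, was at 22.2 and 22.99 CPM in GFP-negative cells and at 29.4 and 74.6 CPM in acute ECs. WT cultures held 25.9 to 68.1 CPM (median 38.1) and stabilized cultures 32.3, 32.5, 68.9 and 71.7 CPM, so that the acute libraries spanned the stabilized wells, while 2 WT wells lay below both acute libraries. Its log2 fold changes of 1.21 ± 0.55 in acute ECs against GFP-negative cells and -0.25 ± 0.49 in WT cultures against acute ECs did not pass (edgeR adjusted p = 0.155 and 0.694).

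Rbpj, which encodes the protein through which all Notch receptors reach DNA, was at 70.4 and 71.5 CPM in GFP-negative cells, 38.7 and 73.3 CPM in acute ECs, 37.7 to 88.2 CPM in WT cultures (median 52.0) and 51.1, 54.3, 65.4 and 70.4 CPM in stabilized cultures. The acute and the WT values overlapped those of every other group, while the stabilized wells lay just under the GFP-negative libraries. The log2 fold changes lay between -0.33 and 0.09 with adjusted p from 0.612 to 0.963 by edgeR in the comparisons of acute with GFP-negative, of WT and of stabilized cultures with acute, and of stabilized with WT cultures.

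**Figure D3:**
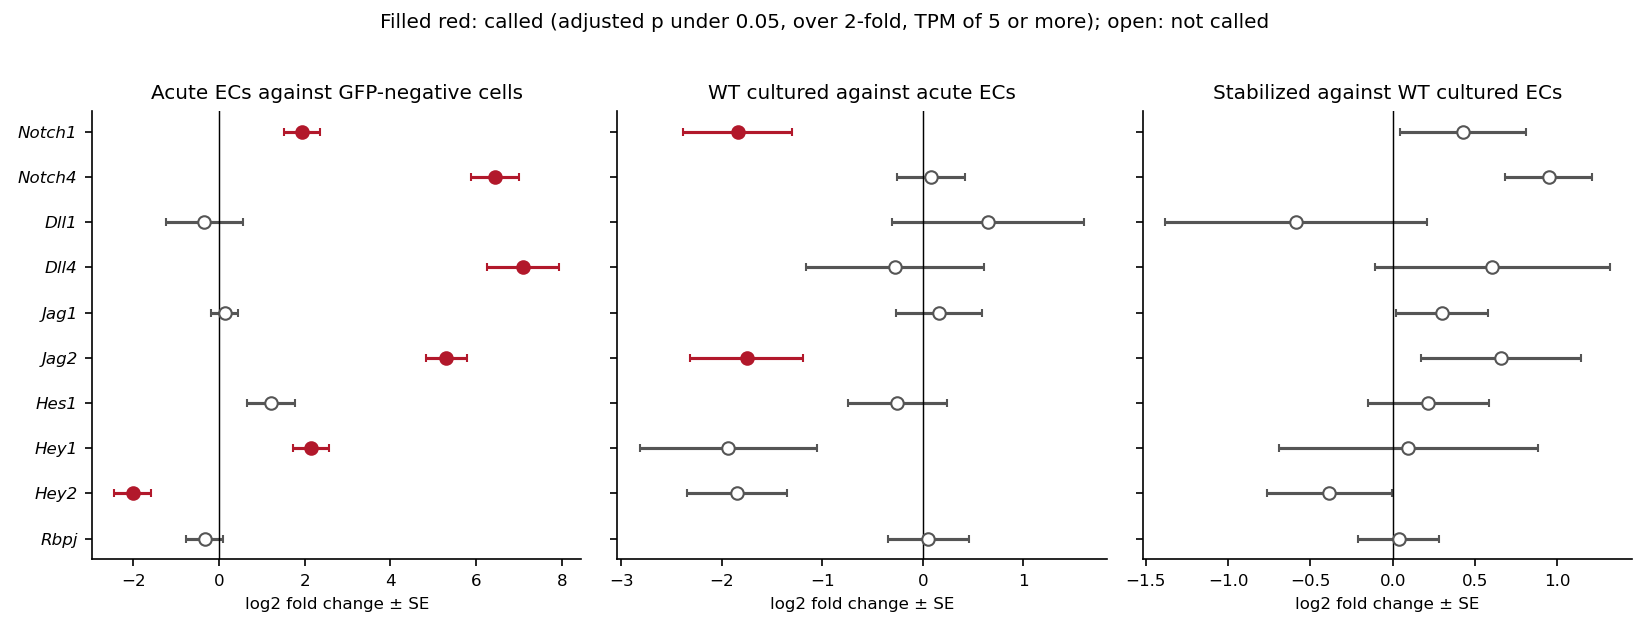
Log2 fold change ± SE of each Notch gene in acute ECs against GFP-negative cells (2 and 2 libraries), WT cultures against acute ECs (6 and 2) and stabilized against WT cultures (4 and 6), from edgeR; filled red points were called, open points were not. Notch4, Dll4 and Jag2 stand over 5 log2 units above GFP-negative cells, Notch1 and Jag2 were called lower in WT culture, and no point is filled in the panel of stabilized cultures.

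Much of the spread in culture lay between experiments and little within them. Across the 3 WT experiments, 9 of the 10 genes differed at an adjusted p under 0.05 (edgeR F test on 2 degrees of freedom over the 6 wells), where 89.8% of 13051 tested genes did. Hey1 stood at a mean of 55.6 CPM in experiment 1, 12.3 CPM in experiment 2 and 5.11 CPM in experiment 3, 10.9-fold from the highest to the lowest (adjusted p = 4.06e-09). Dll4 took another order, with 125, 364 and 35.5 CPM (10.3-fold, adjusted p = 2.45e-08). Jag2 was at 131, 61.6 and 33.4 CPM, Hes1 at 66.8, 38.1 and 26.0 CPM and Dll1 at 6.25, 1.52 and 0.754 CPM, each in the order seen for Hey1. Notch1, at 189, 91.5 and 339 CPM, and Jag1, at 155, 126 and 291 CPM, were highest in experiment 3 and lowest in experiment 2. Notch4 was the exception, with 293.5, 276 and 278 CPM (1.06-fold, adjusted p = 0.594). These orders hold for CPM, and not all of them for TPM over all transcripts. On that scale Notch4 was at 37.0, 94.9 and 29.9 TPM in experiments 1, 2 and 3, a 3.18-fold spread, so that its steady level is one of counts and not of TPM. Jag2 (27.9, 36.5 and 7.41 TPM) and Hes1 (49.0, 79.1 and 17.6 TPM) were then highest in experiment 2, as was Jag1 (23.3, 40.7 and 38.6 TPM), and Notch1 was lowest in experiment 1 (15.0, 17.5 and 23.3 TPM). The orders of Hey1, Dll4 and Dll1 were the same on both scales. Isolation method, strain, read length and facility change between these experiments and cannot be told apart.

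Set against the acute libraries one experiment at a time, an alternative chosen after seeing the data, Notch1 was called lower in each, at a log2 fold change of -1.97 in experiment 1, -3.02 in experiment 2 and -1.12 in experiment 3 (edgeR adjusted p = 0.0120, 0.00316 and 0.0489; 13.2, 15.3 and 11.4% of tested genes were called lower in the respective fits). None of the 10 was called higher in any of these fits, in which 15.2, 21.2 and 16.1% of tested genes were. Jag2 (-2.04 and -2.92, adjusted p = 0.0102 and 0.00696) and Hey1 (-2.92 and -4.18, adjusted p = 0.00162 and 0.00260) were called lower in experiments 2 and 3, both of method B. In experiment 1 Jag2 was at -0.95 (adjusted p = 0.0808) and Hey1 at -0.74, under 2-fold (adjusted p = 0.0481). Dll4 went both ways, lower in experiment 3 (-2.57, adjusted p = 0.00471) and at 0.78, under 2-fold, in experiment 2 (adjusted p = 0.0450). With the wells of each experiment summed, so that 3 culture experiments stood against 2 acute libraries, none of the 10 was called (Notch1 -1.78, adjusted p = 0.0699; Jag2 -1.66, adjusted p = 0.0854).

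Since culture experiments stood apart, stabilized and WT cultures were also compared within each isolation method, 2 wells against 2 in libraries of 36 cycles. Methods are those of the study's Methods, from which a figure legend differs for the WT wells of method B used here. Dll4 was called higher in stabilized cultures with both methods. With method A it was at 390 and 422.5 CPM in stabilized wells against 100 and 150 CPM in WT wells (log2 fold change 1.66 ± 0.17, edgeR adjusted p = 0.000863), and with method B at 118.5 and 152 CPM against 33.6 and 37.4 CPM (1.93 ± 0.14, adjusted p = 0.000786). In these fits 5.39% of 12849 and 1.08% of 12836 tested genes were called higher. With method as a covariate over the 8 libraries, Dll4 was the 1 gene of the 10 that was called (1.79 ± 0.15, adjusted p = 0.00156, with 0.511% of genes called higher). None of the 10 was called lower in the method A, method B or covariate fit, in which 0.918, 0.288 and 0.0774% of genes were. The wells of WT experiment 2, sequenced for 150 cycles and at 359 and 368.5 CPM, enter neither of these fits, and with them the stabilized and WT values of Dll4 overlap.

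Notch4 was called higher in the method A cultures, at 738.5 and 787.5 CPM against 260 and 327 CPM (1.34 ± 0.11, edgeR adjusted p = 0.000616), and differed by 0.29 ± 0.06 in the method B cultures, at 335 and 346 CPM against 268 and 287 CPM (adjusted p = 0.0172). The difference between the methods was itself tested as an interaction term, which passed for 7 of the 10 genes, where 49.6% of 13357 tested genes passed. For Notch4 it was -1.03 ± 0.14 (method B minus method A, log2 scale, adjusted p = 0.000618) and for Dll4 0.29 ± 0.25 (adjusted p = 0.366). Notch1, Jag1 and Rbpj had positive values with method A (0.55, 0.58 and 0.34) and negative ones with method B (-0.30, -0.31 and -0.28), with interactions of -0.82 ± 0.18, -0.86 ± 0.12 and -0.60 ± 0.12 (adjusted p = 0.00571, 0.000705 and 0.00435). Hey1 took opposite values, at -0.45 ± 0.12 with method A and 1.09 ± 0.14 with method B (interaction 1.56 ± 0.20, adjusted p = 0.000425), and stayed uncalled with method B because of its low TPM. Hey2 was lower with both methods and by a like amount (-0.74 and -0.72), under 2-fold in either. Each genotype stands for 1 experiment per method, so that the interaction cannot be told apart from differences between experiments.

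**Figure D4:**
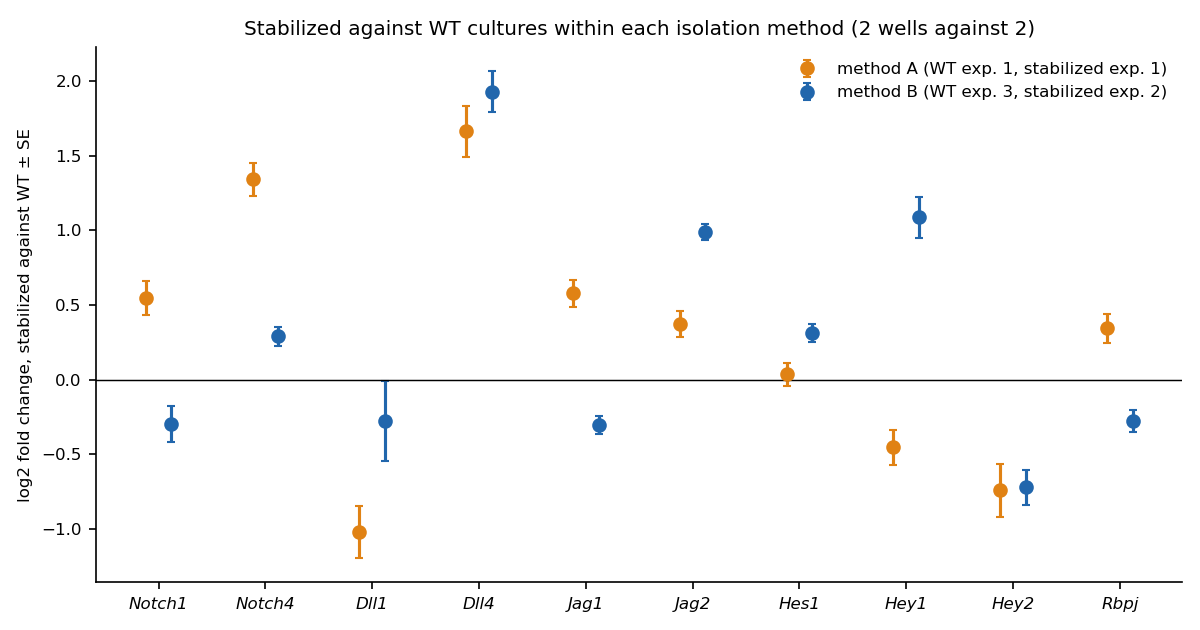
Log2 fold change ± SE of stabilized against WT cultures for each Notch gene, with method A (orange) and method B at 36 cycles (blue), 2 wells against 2 in each, from edgeR. Dll4 is high with both methods (1.66 and 1.93), whereas Notch1, Jag1, Rbpj and Hey1 change sign between them.

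Levels of different genes were compared per length, as TPM of coding transcripts. In acute ECs Jag2 led with 44.7 ± 14.6 TPM (mean ± SD, n = 2), followed by Notch1 at 25.6 ± 0.33, Hes1 at 24.3 ± 19.0, Hey1 at 21.6 ± 7.19, Dll4 at 19.1 ± 0.31 and Notch4 at 16.9 ± 4.56 TPM, of which each overlapped the next from Notch1 downward. The range of Hes1 also reached that of Jag2 above and that of Jag1 below. The lead of Jag2 rested on Jag2-209, a short coding transcript of 742 bases, at a mean of 29.6 TPM. That transcript took 4.93 to 15.3% of the Jag2 counts but 19.4 to 44.2% of the Jag2 TPM. Jag2-201, of 5106 bases, was at a mean of 15.0 TPM in acute ECs, under the means of Notch1, Hes1, Hey1, Dll4 and Notch4. In WT cultures Jag2-201 was at 18.7 TPM. Jag1 at 9.81 ± 1.96 TPM lay under the others, then Hey2 at 4.04 ± 1.01 and Rbpj at 3.97 ± 2.79 TPM, which overlapped, and Dll1 at 0.120 ± 0.086 TPM. In WT cultures the means ran from Dll4 (73.4 ± 89.1 TPM, n = 6) through Notch4 (50.9 ± 33.0), Hes1 (46.3 ± 26.9), Jag1 (33.6 ± 9.99), Jag2 (21.6 ± 13.8), Notch1 (17.9 ± 4.74), Hey1 (11.9 ± 9.44) and Rbpj (11.6 ± 4.47) to Hey2 (1.66 ± 0.40) and Dll1 (0.758 ± 0.52). The range of each of the first 8 overlapped that of its neighbour, Rbpj and Hey2 did not overlap, and Hey2 and Dll1 did.

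Within each family, the mix of coding TPM in WT cultures differed from that in acute ECs. Notch1 made up 48.9 ± 4.00% (SD, n = 2) and Notch4 32.0 ± 6.48% of the receptor TPM in acute ECs, whereas in WT cultures (n = 6) Notch4 made up 67.4 ± 14.7% and Notch1 28.4 ± 11.4%. Notch3, the receptor of smooth muscle and pericytes, held 16.5 ± 1.85% in acute ECs and 0.628 ± 0.36% in WT cultures, and in GFP-negative cells it was 68.7 ± 1.36%. Of the 4 ligands, Jag2 held 60.0 ± 6.00% in acute ECs and 19.2 ± 9.83% in WT cultures, while Jag1 held 13.4 ± 0.41% and 40.3 ± 27.6%. Hes1 and Hey1 held 43.5 ± 13.7 and 44.4 ± 9.59% of the TPM of Hes1, Hey1, Hey2 and Heyl in acute ECs, and in WT cultures Hes1 came to 76.9 ± 8.71% and Hey1 to 17.7 ± 10.6%. The ranges of acute and WT libraries did not overlap for any of these 7 genes. They were widest apart for Jag2 (55.7 to 64.2 against 11.8 to 33.7%) and closest for Jag1 (13.1 to 13.7 against 14.5 to 76.1%), with Notch4 at 27.5 to 36.6 against 49.3 to 84.0% and Hes1 at 33.8 to 53.2 against 63.8 to 85.7%. Among the other genes of these families the ranges overlapped for Dll4, at 22.5 to 30.5% in acute ECs against 11.9 to 72.2% in WT cultures. They also overlapped for Notch2 (2.12 to 3.02 against 0.863 to 7.66%) and Hey2 (6.71 to 10.3 against 1.28 to 10.2%). Those of Dll1 and Heyl did not overlap. Shares were not tested. Those of the ligands include the short Jag2-209, at a mean of 29.6 TPM in acute ECs and 2.94 TPM in WT cultures. The longer Jag2-201 was at 15.0 and 18.7 TPM, so the fall in the Jag2 share leans on the short transcript.

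A wider list of 51 other Notch pathway genes was examined by role. Of the 45 tested in WT cultures against acute ECs, 5 were called higher and 8 lower, where 13.5 and 10.2% of all tested genes were (median log2 fold change -0.29, against 0.10 over all genes). Among genes of receptor cleavage, Aph1b, a gamma-secretase subunit, was at 113 to 224 CPM in WT cultures against 1.06 and 3.25 CPM in acute ECs (log2 fold change 6.41 ± 0.68, edgeR adjusted p = 0.000244), and the subunits Psen2 and Psenen were higher by 1.30 and 1.40 (adjusted p = 0.0133 and 0.0312). The ADAM proteases that make the first cut, Adam10 and Adam17, were lower (-2.33 and -1.71, adjusted p = 0.00851 and 0.000846). Lfng, a Fringe enzyme whose sugars tune which ligand a receptor answers, was at 2.82 to 5.86 CPM in WT cultures against 30.9 and 42.7 CPM in acute ECs (-3.12 ± 0.32, adjusted p = 0.000208 by edgeR), and Poglut1, which glucosylates Notch, was higher by 1.32 (adjusted p = 0.0138). Among 11 nuclear cofactors, those called lower included the coactivator Ep300 and the corepressor Spen, at -3.45 and -4.21 (edgeR adjusted p = 0.00113 and 0.000392). Notch3 was at 0.804 to 5.97 CPM against 129 and 196 CPM (-5.56 ± 0.69, adjusted p = 0.000489), Numb, an inhibitor of Notch, was lower (-1.21, edgeR adjusted p = 0.00667), and Hes6, an atypical HES gene, was at 12.0 to 26.9 CPM against 1.12 and 1.61 CPM (3.77 ± 0.49, adjusted p = 0.000599). The same 13 genes were called in the same directions in stabilized cultures, which were set against the same acute libraries.

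Between acute ECs and GFP-negative cells, 6 of 49 tested pathway genes were called higher and 6 lower, where 8.3 and 7.56% of all tested genes were. Mfng, another Fringe enzyme, was at 80.5 and 132 CPM against 1.52 and 2.31 CPM (log2 fold change 5.81 ± 0.55, edgeR adjusted p = 0.00198), and Adam10, Adam17, Furin, Aph1a and Numb were the others called higher. Notch3, Notch2, Heyl, Dner, Dtx1 and Aph1c were called lower in acute ECs, Notch3 at 129 and 196 CPM against 584 and 599 CPM (-1.84 ± 0.35, edgeR adjusted p = 0.0127). Of 43 tested between stabilized and WT cultures none was called, as for all genes tested. Of 10 arterial EC genes in WT cultures against acute ECs, Cxcr4 was called higher and Nrp1, Gja4 and Gkn3 lower, in a comparison that called 13.5% of all tested genes higher and 10.2% lower. Of 7 tip EC genes, Esm1, Apln, Angpt2, Pgf and Plaur were called higher and none lower, and of 6 venous EC genes, Ephb4, Aplnr and Slc38a5 were called lower and none higher.

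Open chromatin at the starts of the Notch genes was present in sorted and cultured ECs alike. In ATAC-seq, peaks had been called in each library, and those with a fold enrichment over 2 and a -log10 q over 2 were used. They numbered 31779 and 37384 in acute ECs, 33122 to 98732 in WT cultures and 79116 and 80034 in stabilized cultures. A start was taken as open where such a peak lay within 1 kb. For 8 of the 10 genes a start peak was found in all 10 libraries. In a given library 50.0 to 61.2% of all 22028 coding genes had one. These are unlike measures: the share is of single libraries and of GENCODE starts, whereas the 10 genes were taken at RefSeq starts where given. The share of coding genes with a peak in all libraries was not counted. Jag2 had none in WT replicate 1 and Dll1 none in WT replicate 2, both of method A. At Hey2 the fold enrichment over local background was the highest of the 10 genes in every group, 21.02 and 21.1 in acute ECs, 14.5 to 20.5 in WT cultures and 17.7 and 18.8 in stabilized cultures.

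At Jag2 the fold enrichment of the start peak was 8.93 and 9.57 in acute ECs, 0 (no peak) to 6.12 in WT cultures and 4.25 and 4.55 in stabilized cultures, at Notch1 9.38 and 10.5, 5.67 to 8.31 and 6.23 and 6.49, and at Dll4 10.7 and 11.8, 5.38 to 10.1 and 7.85 and 8.75. For these genes, and for Hey1 (11.8 and 12.5, 7.72 to 10.8, and 10.2 in both stabilized libraries), all cultures lay below both acute libraries. At Jag1 the ranges overlapped (7.49 and 7.57 in acute ECs, 6.96 to 8.58 in WT cultures), as they did at Notch4 (7.53 and 10.0, and 6.25 to 10.4), Rbpj (9.89 and 11.1, and 8.69 to 10.8) and Hes1 (7.31 and 7.52, and 5.74 to 7.46 in WT cultures, with 6.85 and 7.54 in stabilized ones). Peaks were called at unequal depth, so these values carry no test. Across the genes and 10 kb around them, 3 of 38 peaks shared by both acute libraries met no peak in any culture (7.9%, against 12.6% of 28839 such peaks genome-wide): 2 in Notch1, at 1.3 and 5.9 kb from its start, and 1 in Jag1. In the other direction, 7 of 30 peaks found in all 8 cultures met none in acute ECs (23.3%, against 34.8% of 29980), 3 of them at Jag1, 2 at Rbpj, 1 at Jag2 and 1 at Hey1. The 2 at Rbpj were the strongest, with a fold enrichment of 12.8 and 14.03, at chr5:53490523-53491148 and chr5:53543411-53543834 (GRCm38), inside the annotated gene and upstream of its RefSeq start.

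**Figure D5:**
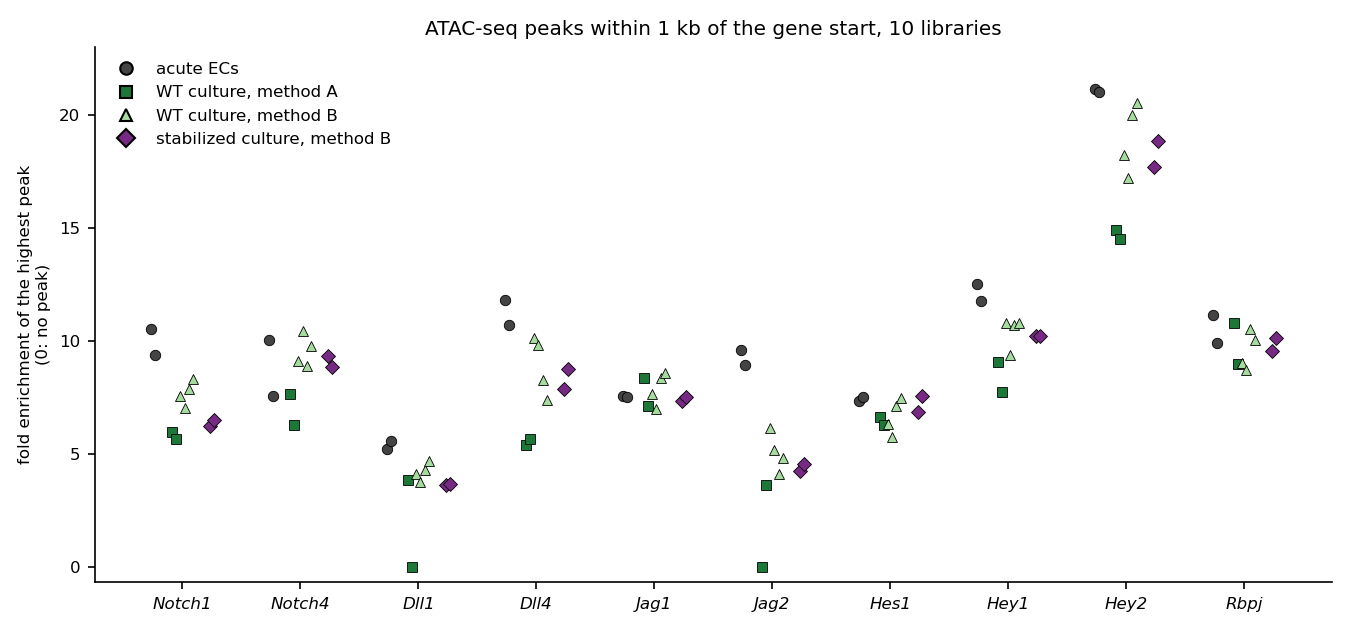
Fold enrichment of the highest ATAC-seq peak within 1 kb of the start of each Notch gene in 10 libraries; 0 stands for no peak. Acute ECs (black circles) lie above all cultures at Notch1, Dll1, Dll4, Jag2, Hey1 and Hey2, and the missing peaks of Dll1 and Jag2 are in method A cultures.

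The promoters of Hey2 and Dll4 are shown because these genes had, in that order, the highest start peak of the list and the difference between stabilized and WT cultures that was called with both methods. Both are RefSeq promoter windows on GRCm38.p6, here the bases before the start and, for Hey2, up to the end of a motif that crosses it. Capitals mark TGGGAA or its reverse complement TTCCCA, the core that RBPJ is known to bind, searched on both strands with no overlap between matches; the Dll4 window has none. The Hey2 window lies at chr10:30842781-30843033 on the minus strand and the Dll4 window at chr2:119325534-119325783 on the plus strand.
Hey2 promoter: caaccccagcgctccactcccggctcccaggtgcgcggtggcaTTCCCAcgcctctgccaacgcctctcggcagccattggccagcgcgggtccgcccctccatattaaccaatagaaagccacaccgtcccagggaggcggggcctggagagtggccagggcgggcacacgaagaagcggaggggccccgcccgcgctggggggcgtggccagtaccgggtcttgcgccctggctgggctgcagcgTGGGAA
Dll4 promoter: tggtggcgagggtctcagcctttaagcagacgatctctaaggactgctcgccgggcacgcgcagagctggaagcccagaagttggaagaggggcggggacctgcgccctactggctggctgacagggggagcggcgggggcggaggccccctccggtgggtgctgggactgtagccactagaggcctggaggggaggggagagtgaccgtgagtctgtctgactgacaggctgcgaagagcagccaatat
In the windows from 250 bases before to 50 after the start, which were given for 8 of the 10 genes (Hes1 and Hey1 are named only), the 6 letters were found at 2 genes, Hey2 (2 matches, starting 207 and 3 bases before the start) and Rbpj (2 matches before one start and 1 before the other, at shared bases). Of all 32851 promoter windows 25.6% held at least 1 match and 3.8% at least 2. The match is a description of these letters and not a binding site.

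Across the 14 RNA-seq libraries, the gene whose profile lay nearest to each member was found by the mean absolute difference of centred log2(TPM + 1) values, among 11601 genes that reached 5 TPM in at least 1 library. It was Trim16 for Notch4 (0.36 log2 units), Ly6e for Dll4 (0.40), Ets1 for Jag2 (0.30), Lgals3bp for Hey1 (0.38), Kctd2 for Hes1 (0.12), Ap3b1 for Jag1 (0.14), Ptges3 for Rbpj (0.14), Lin7a for Hey2 (0.16), Pnpla8 for Dll1 (0.19) and Pwwp2a for Notch1 (0.26), the last over a TPM that holds the short transcript described above. The next nearest gene to Dll4 was Notch4 (0.56). A small distance comes easily to genes that vary little, and all 14 points share the same groups.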

How the data were processed

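The authors quantified RNA-seq reads with Salmon 0.14.0 on GENCODE M21 transcripts (GRCm38) and deposited an estimated count, which is not normalised, and a TPM for each of 140198 transcripts. ATAC-seq reads were aligned by the authors with HISAT2 2.1.0, MACS2 2.1.2 then called the peaks of every library separately, and the deposited peak lists give the fold enrichment, used here as a ratio over local background, and the -log10 q. The deposited peak score and -log10 p, and the deposited effective length except as an offset, were not used.

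The gene names and all lists were chosen with earlier results of these data known. Counts and TPM were summed per protein-coding gene (21820 symbols; 27 duplicate symbols were dropped), counts were rounded, and edgeR 4.0.16 in R 4.3.3 (filterByExpr, TMM, glmQLFit, glmQLFTest, Benjamini-Hochberg) was fitted to the libraries of each comparison. The SE of a log2 fold change was derived through its F statistic. The call rule takes the study's limits. All members are named, and other genes only where called in a list by role, with, for each member, the nearest profile. Alternatives were DESeq2 1.42.0, other scalings, filters, offsets, coding transcripts, subsets of cultures and libraries left out. The test was checked on simulated counts with 200 changed genes. Depth was 24284843 to 94686456 counts, so that the spread between libraries sets the precision. Same-numbered replicates were not treated as pairs in the main fits. Of stabilized and WT cultures, only the first 2 deviate together (r = 0.53 and 0.52, against -0.01 and 0.05 for replicates 3 and 4). For acute ECs and GFP-negative cells r was 0.06 for both replicates. With 2 libraries per group this cannot decide whether same-numbered sorted fractions share animals. Stabilized replicate 4, whose record names another molecule than RNA, was used as RNA-seq. The cerebrum samples were not analysed here. The values of a pathway gene that is counted among the calls are not reported here.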

Additional observations from a re-analysis of the deposited data

Results flagged for a closer look

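The difference between stabilized and WT cultures itself differed between isolation methods for 7 of the 10 genes, by an interaction term over the 8 cultured libraries of 36 cycles (edgeR, adjusted p under 0.05; 49.6% of all tested genes passed). On the log2 scale, method B minus method A, it was -0.82 for Notch1, -1.03 for Notch4, -0.86 for Jag1, 0.64 for Jag2, 0.30 for Hes1, 1.56 for Hey1 and -0.60 for Rbpj. It was largest in size for Hey1, whose stabilized wells lay below the WT wells with method A (38.4 and 45.04 against 50.1 and 61.1 CPM) and above them with method B (9.87 and 11.8 against 4.75 and 5.48 CPM). With each method standing for 1 experiment per genotype, method, mouse strain and experiment cannot be told apart.

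In ATAC-seq, the Dll1 start had a fold enrichment of 0 (no peak) in WT replicate 2, far from the 5 other WT cultures (3.74 to 4.67). Of 30 groups of 4 to 10 values checked for such a gap this was the only one. Chance gives about 1 in every 20 groups of independent values, so 1 in 30 is no more than chance gives. Wells of a culture experiment lie close together, so a lone gap is less likely among CPM values. The 0 stands for no peak and not for a measured value, in the WT library with the fewest peaks (33122).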

How the results depend on the processing

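Over 760 pairs of a gene and an alternative, 714 kept their side of the call rule, 30 lost a call, 16 gained one and 0 turned from higher to lower or back; a further 78 changed sign without a call in either fit. The calls of Notch4, Dll4 and Jag2 over GFP-negative cells held in 13 of 13 alternatives and that of Notch1 in WT cultures in 21 of 24, whereas that of Jag2 held in 14 of 24. Calls against acute ECs rest on 2 acute libraries, and the effect of depth was not tested.

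Of the 10 genes, those called lower in WT cultures against acute ECs numbered 2 and became 1 with library size scaling, with WT cultures of 36 cycles, of method A or of experiment 1 only, and 4 with experiment 3 only, 0 with wells summed, and 0 to 3 without 1 library. Replicate numbers as a block gave 1, and in stabilized cultures against acute ECs 1 higher (Notch4) where there was 0. Between stabilized and WT cultures the block moved the calls over all genes from 0 to 149 higher and 24 lower, but since the numbers pair no samples it is not a paired analysis. In the method A, method B and covariate fits, stabilized cultures had 2, 1 and 1 of the 10 genes higher, where the pooled fit had 0, and 6, 1 and 1 of the 51 other pathway genes. For stabilized cultures against acute ECs, 2 genes lower became 1 with library size scaling or with all 14 libraries in 1 fit and 0 to 2 without 1 library, and 0 higher became 1 with the length offset, over all transcripts (Rbpj) or coding ones (Jag1). For acute ECs against GFP-negative cells the 5 higher became 3 to 5 without 1 library, and the 1 lower became 0 with either length offset and 0 to 1 without 1 library.

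Of the other pathway genes, 5 called higher in WT cultures became 3 with either length offset or with experiment 3 only, 9 with experiment 2 only, 2 with wells summed and 2 to 5 without 1 library, and 8 lower became 14 without the TPM minimum. In stabilized cultures against acute ECs 8 lower became 15 without it. Against GFP-negative cells 6 higher became 3 with the length offset or coding transcripts, 1 with both, and 2 to 9 without 1 library, and 6 lower became 11 without the TPM minimum. The causes were not tested. Library size scaling alone moved the median of all genes from 0.10 to 0.30 in WT cultures against acute ECs, from -0.06 to -0.44 in acute ECs against GFP-negative cells and from 0.04 to 0.16 in stabilized cultures against acute ECs. With fold enrichment and -log10 q over 4, 8 start regions were open in all libraries, and 7 with GENCODE starts, where Rbpj has none.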
